A study of Mus musculus with 10 samples.

Results

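Immunoglobulin transcripts were examined in the bone marrow (BM) of mice after a transplant of hematopoietic stem cells from fetal liver (FL-HSCs). The members are the array probe sets whose listed gene symbols are all immunoglobulin variable (V), joining (J) or constant (C) segments. The rule found 29 of 35556 probe sets, and together these list 29 symbols, which are 21 V segments, 2 V segment pseudogenes, 5 C regions and 1 J segment. Of the 29 probe sets, 10 list heavy chain segments of chromosome 12, 17 list kappa light chain segments of chromosome 6 and 2 list lambda light chain segments of chromosome 16. No member lists the constant region of IgD, IgE, IgG1 or IgG2, and 12146 probe sets that list no gene were not analysed here for immunoglobulin content.

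RNA of recipient BM was hybridised on 10 arrays. VD(−) HSC recipients were vitamin D-sufficient C57BL6 mice that, after lethal irradiation, received FL-HSCs of C57BL6 embryos carried by dams on a vitamin D-deficient diet. VD(+) HSC recipients were treated alike with FL-HSCs of embryos of dams on a vitamin D-sufficient diet. Each group has 5 arrays, of which 3 carry RNA of single samples (replicates 1 to 3) and 2 carry pooled RNA. The labels give an age of 8 weeks and both sexes, and not the time after the transplant, for which the study's text and a legend give different values. They name BM as the source but BM macrophages in the treatment field. Cells of the host can remain after a transplant. The paper reports that most peripheral blood cells of recipients were of donor origin, and the share of host cells in these BM samples was not measured here.

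A B cell builds its antibody genes by joining V, D and J segments at the heavy chain locus and V and J segments at the kappa or lambda locus, so that each B cell clone uses 1 heavy and 1 light chain V segment. The C region joined to the heavy chain V segment sets the antibody class. Ighm encodes the constant region of IgM, the class made first, Igha that of IgA, the class of mucosal surfaces, and Ighg3 that of an IgG subclass. BM holds B cell precursors that carry out the joining as well as long-lived plasma cells, which secrete antibody and hold very large amounts of immunoglobulin mRNA. A few plasma cell clones can therefore supply much of the immunoglobulin mRNA of a tissue.

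All values below are log2 values after RMA, a method that corrects the background of an array, gives all arrays a common distribution and reduces the probes of a probe set to 1 value. All 29 members had a mean over the 10 arrays above 4.74, the median over all probe sets, though Igkv5-43 (4.81) and Ighg3 10403046 (4.96) lay close to it. Values of a group are listed for replicates 1 to 3 and then for pools 1 and 2. A difference is VD(−) less VD(+) on the log2 scale, with the standard error (SE) of limma. In whole BM, fewer cells of a type and less RNA per cell cannot be told apart. The array takes its symbols from listed mRNAs, many of them rearranged, so that a probe set listed under Igha or Ighm can lie in the variable part of such an mRNA. V segments of a family are alike in sequence, and 17 of the 29 members share a listed mRNA with another member. These were treated as uncertain in which segment they measure, and no level was set against that of another probe set.

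Some arrays stood apart in ways that the group labels do not give. The mean of 3 Y-linked genes in VD(−) arrays was 6.64 for replicate 1, 6.80 for pool 1 and 5.31 for pool 2, whereas the other 7 arrays lay between 2.25 and 2.56. Male RNA was thus seen in VD(−) arrays alone, and differences are given also without these 3 arrays where those of members described array by array moved by over 1.5 times. In the immunoglobulin probe sets each pool resembled 1 of the single arrays of its group. The root mean square difference over the 29 members was 0.287 between VD(−) pool 1 and VD(−) replicate 1, against 0.705 and 0.513 for replicates 2 and 3. VD(−) pool 2 lay 0.270 from VD(−) replicate 3, against 0.487 and 0.704 for replicates 1 and 2. In the VD(+) group, pool 1 lay 0.307 from replicate 2 and 0.697 from each of replicates 1 and 3, and pool 2 lay 0.256 from replicate 3 and 0.738 and 0.764 from replicates 1 and 2.

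Over all probe sets every pool lay between 0.353 and 0.413 from each single array of its group. The same single array was again the nearest to each pool, by smaller margins. The nearest array lay 0.353 and 0.376 from VD(−) pools 1 and 2, with the other VD(−) single arrays at 0.381 to 0.406. For VD(+) pools 1 and 2 the nearest lay at 0.368 and 0.353, with the others at 0.361 to 0.413. Among single arrays of a group the root mean square difference over the members was 0.555 to 0.924. For these pairs, the deviations of the 29 members were taken from the mean of the single arrays of the group, without the pools. These deviations had a Pearson correlation of 0.79 and 0.69 for the matching VD(−) pairs and of 0.86 and 0.83 for the matching VD(+) pairs. Over all probe sets the same pairs had correlations of 0.17, 0.04, 0.09 and 0.09. The matching pairs were picked by their distances over these same members, so high correlations were in part given by that choice. The other pairs had correlations of −0.71 to 0.07 over the members. Deviations from that mean cancel over the single arrays of a group, so a high correlation of a pool with 1 of them lowers the others. The low values are therefore no separate contrast. The members also share arrays and, in part, mRNAs, so these correlations are a description. The labels do not say whether a pool contains RNA of a single mouse, so a p-value covers no more than the spread among these arrays, and values of the single arrays alone are given beside the results.

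**Figure D1:**
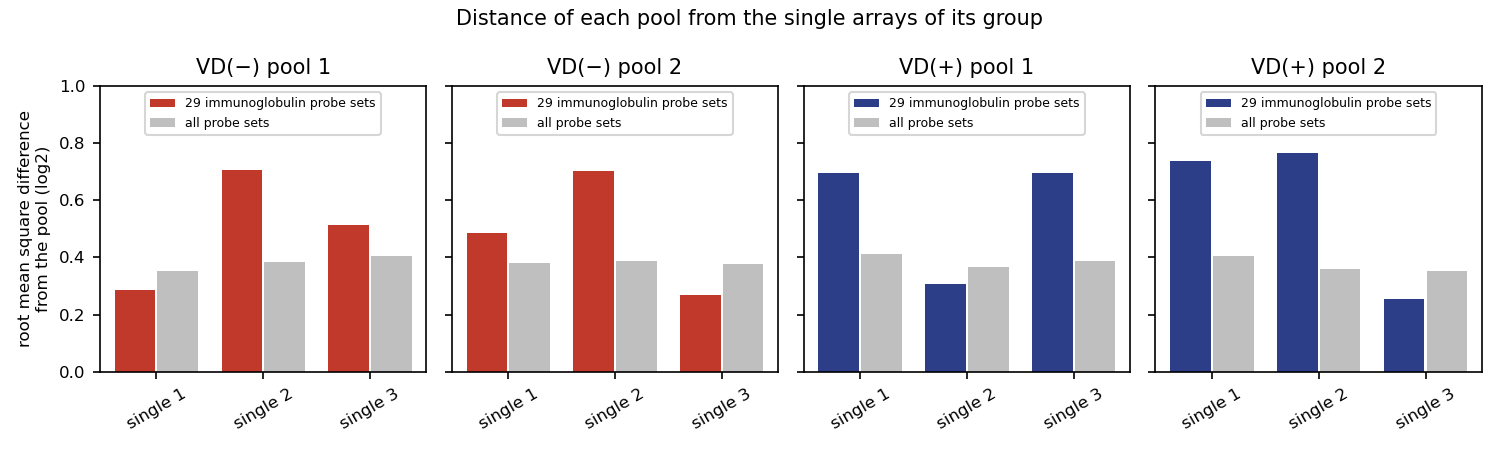
Root mean square difference (log2) between each pool and the 3 single arrays of its group, over the 29 immunoglobulin probe sets (coloured bars, red for VD(−), blue for VD(+)) and over all probe sets (grey bars). Each pool has 1 single array at 0.256 to 0.307 in the immunoglobulin probe sets, while the grey bars run from 0.353 to 0.413. The lowest grey bar of each pool is that of the same single array.

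The kappa V segment Igkv4-91 rose in VD(−) BM, and it was the 1 member of 29 past an adjusted p of 0.05 in limma. Over all probe sets 42 passed, which is 0.118%. At an unadjusted p under 0.05, 7 members were higher in VD(−) BM (24.1% of them, against 3.85% of all probe sets) and 5 were lower (17.2%, against 3.23%). These 12 were spread over the heavy chain, kappa and lambda loci. With the Y-linked signal as a covariate on all 10 arrays 3 members were higher and 5 lower (3.77% and 3.63% of all probe sets), by the methods' t-test 3 and 5 (3.66% and 3.31%), and without VD(+) replicate 1 also 3 and 5 (3.25% and 2.86%). With the covariate the 3 higher were Igkv4-91, Iglv1/Iglc1/Iglv2 10438415 and Ighm 10402991, and the last of these was not among the 7. With the single arrays alone 2 members were higher (6.90%, against 2.33% of all probe sets) and 3 lower (10.3%, against 2.40%).

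The median difference over the 29 members was 0.08, with 18 above 0 and 11 below, and that over all probe sets was −0.00278. The median absolute difference was 0.359 for the members and 0.0889 for all probe sets, and 9 members (31.0%) differed by over 0.5, against 2.82% of all probe sets. The median was −0.22 over the 10 heavy chain probe sets, 0.10 over the 17 kappa probe sets and 0.33 over the 2 lambda probe sets. Of the 12 members past an unadjusted p of 0.05, 7 kept it with each of the 10 arrays left out in turn.

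**Figure D2:**
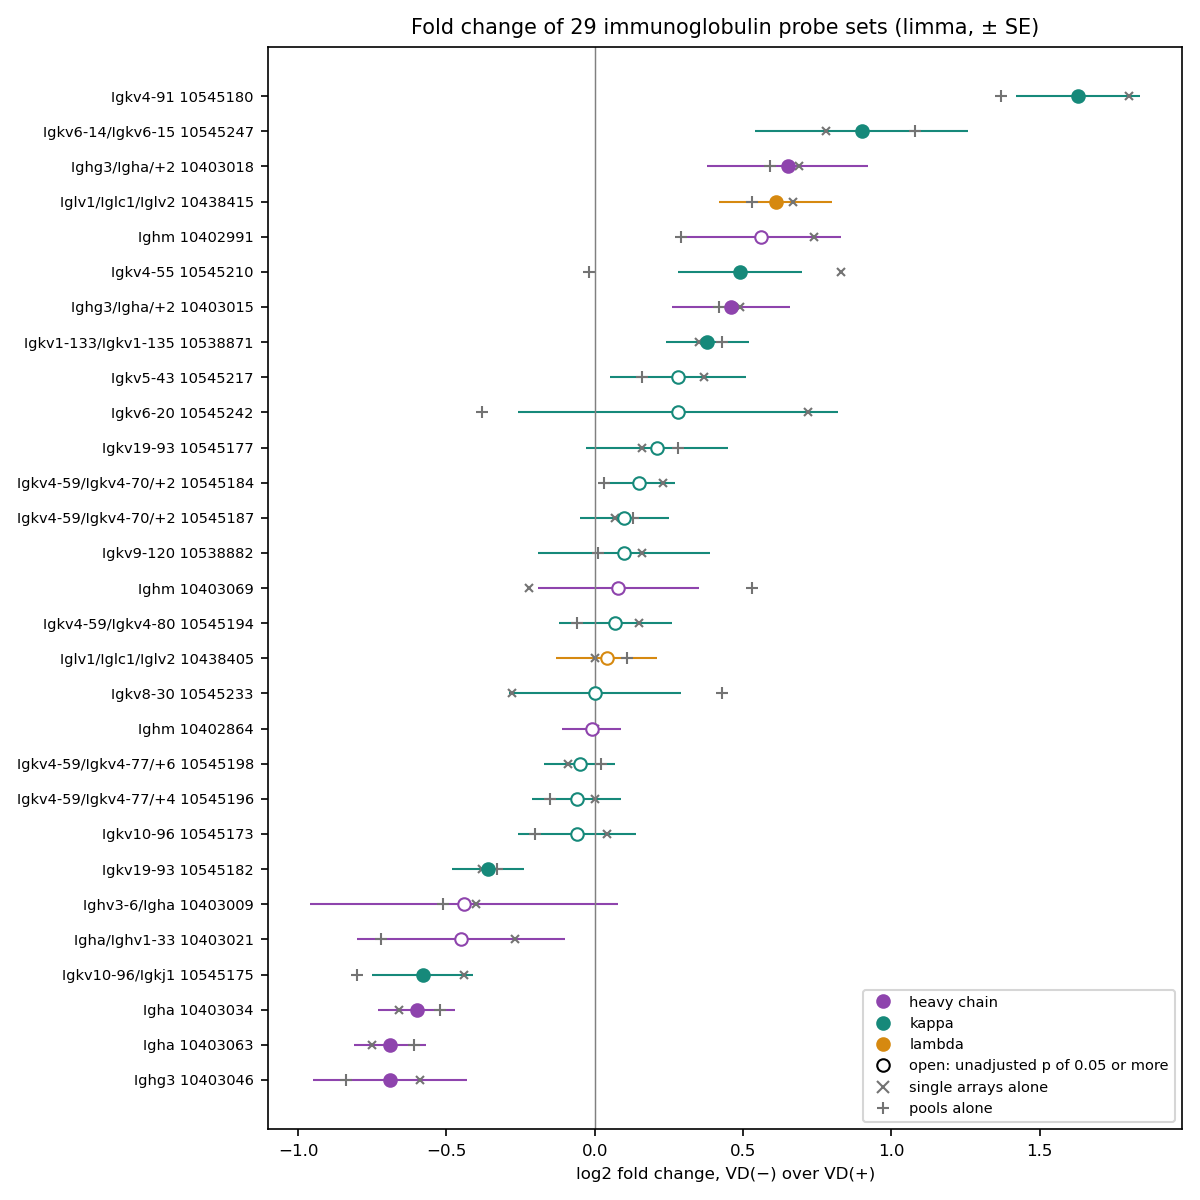
Difference between VD(−) and VD(+) arrays (log2 fold change, points, with the SE of limma as bars) of the 29 probe sets, coloured by locus, with the difference in the single arrays alone (x) and in the pools alone (+). Filled points have an unadjusted p under 0.05, and a plus sign with a number in a name stands for further symbols listed. Igkv4-91 stands highest at 1.63, and the lowest are Ighg3 and Igha 10403063, each at −0.69.

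The 2 probe sets listed under Igha alone were lower in VD(−) BM, and their groups did not overlap. For Igha 10403063 the VD(−) values were 7.64, 8.25 and 8.19 in replicates 1 to 3 and 8.14 and 8.19 in pools 1 and 2, against 8.62, 8.94 and 8.76 and 8.79 and 8.77 in the VD(+) arrays. All 5 VD(−) arrays thus lay below all 5 VD(+) arrays. The mean was 8.08 ± 0.25 in VD(−) BM and 8.78 ± 0.11 in VD(+) BM (SD, n = 5 each). The difference was −0.69 (SE 0.12, adjusted p = 0.0829 by limma), a ratio of 0.619, and it did not pass the adjusted threshold. Single arrays alone gave −0.75 and pools alone −0.61.

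For Igha 10403034 the VD(−) values were 7.94, 8.35 and 8.03 in the replicates and 8.26 and 8.39 in the pools, against 8.53, 9.06 and 8.70 and 9.02 and 8.67 in the VD(+) arrays. The VD(−) arrays again lay below every VD(+) array. The difference was −0.60 (SE 0.13, adjusted p = 0.216 by limma), a ratio of 0.658. Groups that did not overlap in this direction made up 0.641% of all probe sets and 2 of the 29 members (6.90%). Both probe sets list the same 7 mRNAs, and their deviations from the group means had a Pearson correlation of 0.70 over the 10 arrays, so they are not independent measurements.

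The other probe sets that list Igha also list heavy chain V segments, and their groups overlapped. Ighv3-6/Igha 10403009, for example, ranged from 6.57 to 6.99 over the VD(−) arrays and from 5.79 to 8.96 over the VD(+) arrays. Its high VD(+) values were 8.96 in replicate 2 and 8.11 in pool 1, the pool that resembled that replicate. Igha/Ighv1-33 10403021 ranged from 7.07 to 7.45 over the VD(−) arrays, whereas VD(+) replicate 3 stood at 8.55 and VD(+) pool 2 at 8.73, and the other VD(+) arrays lay between 6.79 and 7.47. The differences of −0.44 (SE 0.52) and −0.45 (SE 0.35) were within the spread between arrays (adjusted p = 0.891 and 0.823 by limma). That of Igha/Ighv1-33 was −0.29 without the arrays with Y-linked signal.

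A pair of probe sets that lists Ighg3, Igha, Ighv1-33 and Ighv1-26 together had differences above 0. In Ighg3/Igha/Ighv1-33/Ighv1-26 10403018 the VD(−) values were 10.06, 9.55 and 9.26 in the replicates and 9.95 and 9.60 in the pools, against 8.41, 9.80 and 8.58 and 9.52 and 8.86 in the VD(+) arrays. The groups overlapped, and VD(+) replicates 1 and 3 were the lowest. The difference was 0.65 (SE 0.27, adjusted p = 0.671 by limma), and without the 3 arrays with Y-linked signal it was 0.37. In its partner 10403015 the difference was 0.46 (SE 0.20, adjusted p = 0.685 by limma), or 0.27 without these arrays. The pair shares 9 listed mRNAs. Each lost an unadjusted p under 0.05 without VD(−) replicate 1, VD(−) pool 1, VD(+) replicate 1 or VD(+) replicate 3, 10403018 also without VD(+) pool 2, and 10403015 also without VD(−) replicate 2, VD(−) pool 2 or VD(+) pool 1.

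Ighg3 10403046, which lists that constant region alone, had VD(−) values of 5.0, 4.47 and 4.41 in the replicates and 5.03 and 4.19 in the pools, against 5.06, 5.88 and 4.69 and 5.84 and 5.05 in the VD(+) arrays. The highest values were those of VD(+) replicate 2 and VD(+) pool 1, and the groups overlapped. The mean was 4.62 ± 0.37 in VD(−) BM and 5.30 ± 0.53 in VD(+) BM (SD, n = 5 each), a difference of −0.69 (SE 0.26, adjusted p = 0.629 by limma). The signal was low, and the VD(−) mean lay below 4.74, the median over all probe sets. Without VD(+) replicate 2, VD(+) pool 1 or VD(−) pool 2 its unadjusted p was no longer under 0.05, and it reached 0.0559 in limma.

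The 3 probe sets listed under Ighm alone gave different values. Ighm 10402864 averaged 8.13 ± 0.12 in VD(−) BM and 8.13 ± 0.19 in VD(+) BM (SD, n = 5 each), a difference of −0.01 (SE 0.10). It had the smallest range of the 3, from 8.01 to 8.30 in VD(−) and from 7.84 to 8.29 in VD(+) arrays. Ighm 10402991 had VD(−) values of 7.85, 9.27 and 9.0 in the replicates and 8.13 and 8.48 in the pools, against 7.60, 8.44 and 7.87 and 8.26 and 7.78 in the VD(+) arrays. VD(−) replicates 2 and 3 were the highest and the groups overlapped, with a difference of 0.56 (SE 0.27, adjusted p = 0.730 by limma). Without the arrays with Y-linked signal, which leaves those 2 VD(−) arrays, the difference was 1.14. Ighm 10403069 ranged from 6.10 to 7.26 in VD(−) arrays and from 6.29 to 7.50 in VD(+) arrays, with the highest value in VD(+) replicate 1, and its difference was 0.08 (SE 0.27).

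**Figure D3:**
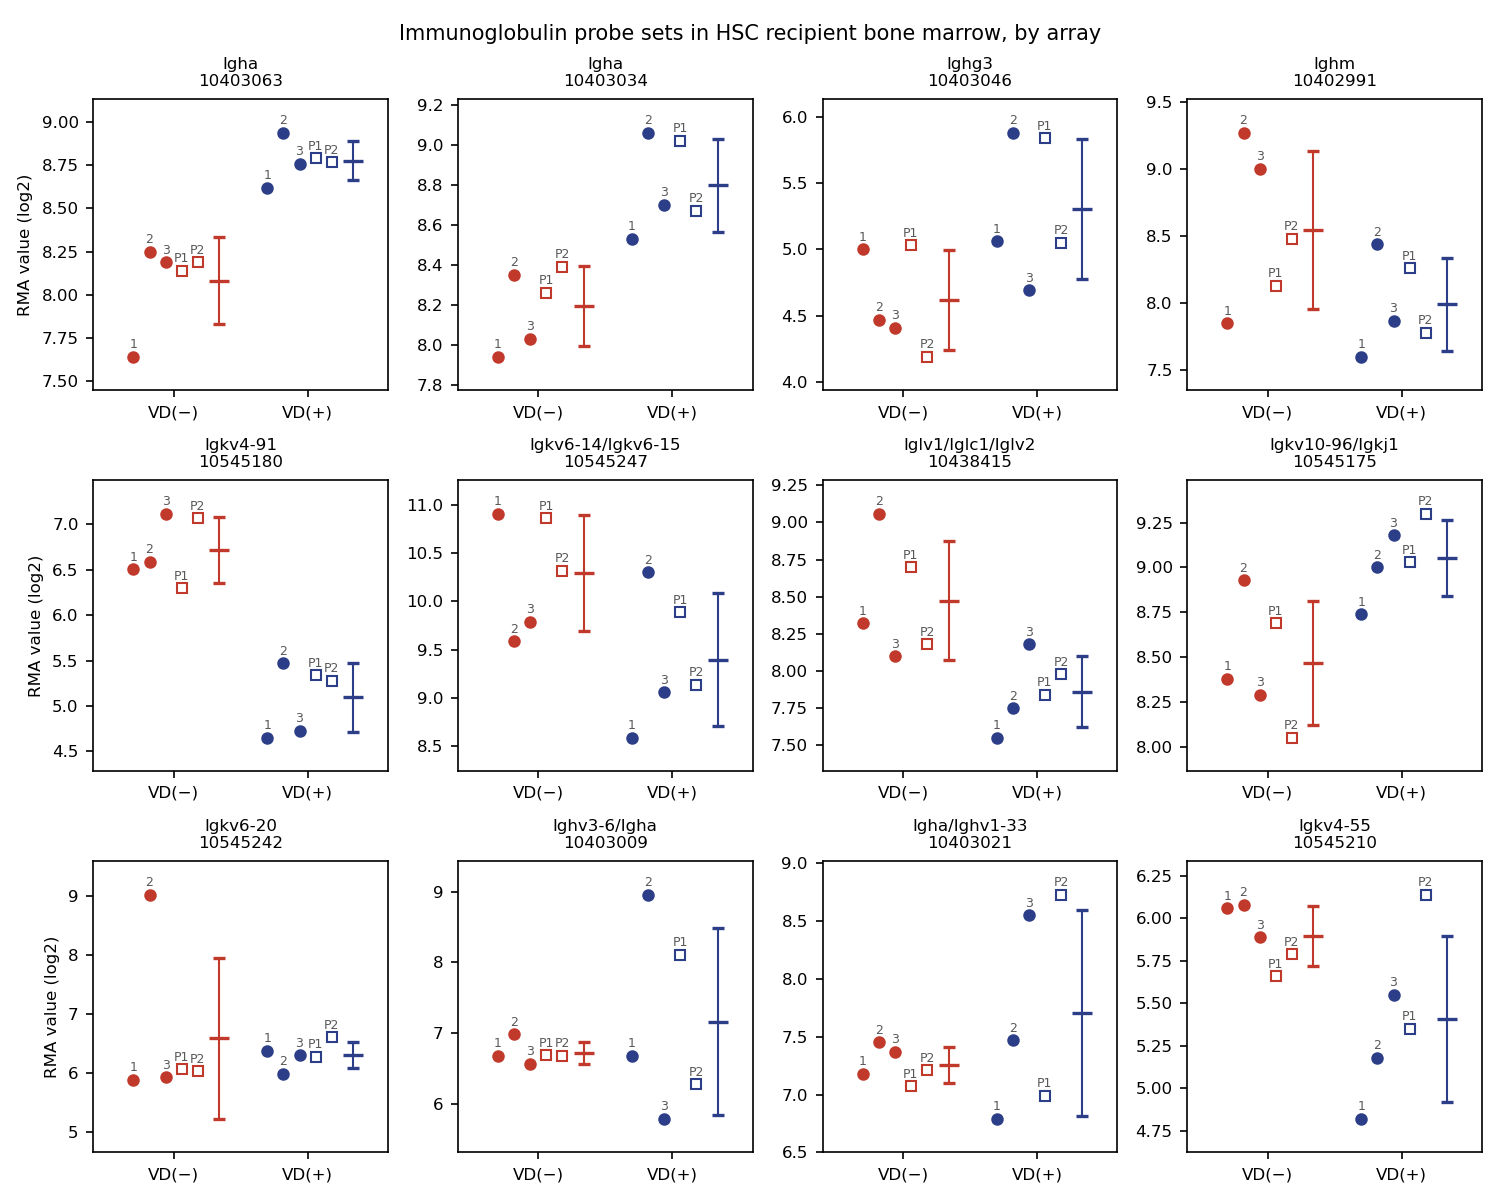
RMA values (log2) of 12 immunoglobulin probe sets on the 10 arrays, VD(−) in red on the left and VD(+) in blue on the right, with single arrays as filled circles (1 to 3), pools as open squares (P1, P2) and the mean ± SD of the 5 arrays as a bar beside them. The axis of each panel has its own range, and only Igha 10403063, Igha 10403034 and Igkv4-91 of these show groups that do not overlap.

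Among kappa light chain probe sets, Igkv4-91 10545180 showed the largest difference of the 29 members. The VD(−) values were 6.51, 6.59 and 7.12 in the replicates and 6.30 and 7.07 in the pools, against 4.65, 5.47 and 4.73 and 5.34 and 5.28 in the VD(+) arrays. The lowest VD(−) array lay above the highest VD(+) array, which was the case for 0.911% of all probe sets and 1 member (3.45%). The mean was 6.72 ± 0.36 in VD(−) BM and 5.09 ± 0.38 in VD(+) BM (SD, n = 5 each). The difference was 1.63 (SE 0.21, adjusted p = 0.0244 by limma), a ratio of 3.09.

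The rise of Igkv4-91 was present in the single arrays (1.80, SE 0.26) and in the pools (1.37, SE 0.29), and was 1.76 without the arrays with Y-linked signal. Its adjusted p ran from 0.0315 to 0.0757 with each array left out in turn and passed in 4 of 10 cases, and was lost without VD(−) replicate 1, VD(−) replicate 3, VD(−) pool 2, VD(+) replicate 1, VD(+) replicate 3 or VD(+) pool 2. The adjusted p was 0.112 by the methods' t-test on all 10 arrays, 0.238 by limma without the arrays with Y-linked signal and 0.546 in the single arrays alone, so that the call was lost in each of these. Igkv4-91 is 1 of the 7 probe sets that list an Igkv4 segment, and it shares no listed mRNA with the other 6.

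Of those 6, the 4 that also list Igkc, the kappa constant region, had small differences. They ran from −0.06 to 0.15 with a median of 0.02, and none had an unadjusted p under 0.05. Igkv4-59/Igkv4-77/Igkv4-70/Igkv4-72/Igkv4-68/Igkc/Igkv19-93/Igkv4-80 10545198, which lists the most segments, averaged 9.54 ± 0.15 in VD(−) BM and 9.59 ± 0.22 in VD(+) BM (SD, n = 5 each). Igkv4-59/Igkv4-80 10545194 lists no constant region, and its difference was 0.07 (SE 0.19). These 5 probe sets share 2 to 14 listed mRNAs with each other, and their deviations from the group means had pairwise Pearson correlations of 0.66 to 0.95 over the 10 arrays.

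In the last of the Igkv4 probe sets, Igkv4-55 10545210, the VD(−) values were 6.06, 6.08 and 5.89 in the replicates and 5.66 and 5.79 in the pools, against 4.82, 5.18 and 5.55 and 5.35 and 6.14 in the VD(+) arrays. All VD(−) replicates lay above all VD(+) replicates, while VD(+) pool 2 was the highest of the 10 arrays. The difference was 0.49 (SE 0.21, adjusted p = 0.683 by limma) over all arrays, 0.83 (SE 0.19) in the single arrays and −0.02 (SE 0.29) in the pools. For the interaction of group and pool it had an unadjusted p of 0.0447 in limma (adjusted p = 1), and it was 1 of 29 members under 0.05 (3.45%), close to the 3.30% of all probe sets, so a difference between single arrays and pools was not shown. Its unadjusted p under 0.05 was lost without any of the VD(−) replicates, VD(+) replicates 1 or 2 or VD(+) pool 1.

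The next largest difference of a kappa probe set was that of Igkv6-14/Igkv6-15 10545247, a pair of V segments of a family apart from Igkv4. The VD(−) values were 10.91, 9.59 and 9.79 in the replicates and 10.86 and 10.32 in the pools, against 8.59, 10.30 and 9.06 and 9.89 and 9.14 in the VD(+) arrays. The groups overlapped, and the 3 highest VD(−) arrays were those with Y-linked signal. The difference was 0.90 (SE 0.36, adjusted p = 0.650 by limma), and 0.30 without these 3 arrays. It lost an unadjusted p under 0.05 without VD(−) replicate 1, VD(−) pool 1, VD(+) replicate 1, VD(+) replicate 3 or VD(+) pool 2. Igkv1-133/Igkv1-135 10538871 had a smaller difference of 0.38 (SE 0.14, adjusted p = 0.608 by limma), or 0.20 without these 3 arrays.

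Of the kappa probe sets, 2 were lower in VD(−) BM at an unadjusted p under 0.05, and each had a partner for the same V segment that was not. Igkv10-96/Igkj1 10545175, which lists a V and a J segment, had VD(−) values of 8.38, 8.93 and 8.29 in the replicates and 8.69 and 8.05 in the pools, against 8.74, 9.0 and 9.18 and 9.03 and 9.30 in the VD(+) arrays. VD(−) replicate 2 was the only VD(−) array above the lowest VD(+) array. The difference was −0.58 (SE 0.17, adjusted p = 0.463 by limma), whereas Igkv10-96 10545173, all 4 of whose listed mRNAs are among the 9 of 10545175, had a difference of −0.06 (SE 0.20). Igkv19-93 10545182 had a difference of −0.36 (SE 0.12, adjusted p = 0.579 by limma), and Igkv19-93 10545177 one of 0.21 (SE 0.24). Without the arrays with Y-linked signal these were −0.33 and −0.13, so the sign of 10545177 changed.

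The remaining kappa probe sets had differences within the spread between arrays. Igkv5-43 10545217 had a difference of 0.28 (SE 0.23), Igkv9-120 10538882 one of 0.10 (SE 0.29), and Igkv8-30 10545233 one of 0.00 (SE 0.29). Igkv6-20 10545242 turned on 1 array. VD(−) replicate 2 stood at 9.02, and the other 4 VD(−) arrays lay between 5.89 and 6.07 and the 5 VD(+) arrays between 5.99 and 6.61. The difference was 0.28 (SE 0.54). The pools alone gave −0.38, and the 7 arrays without Y-linked signal, of which VD(−) replicate 2 is 1, gave 1.16.

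The lambda locus of the mouse holds few V segments, and both probe sets of it list the same symbols, Iglv1, Iglc1 and Iglv2. In Iglv1/Iglc1/Iglv2 10438415 the VD(−) values were 8.32, 9.06 and 8.10 in the replicates and 8.70 and 8.18 in the pools, against 7.55, 7.75 and 8.18 and 7.84 and 7.98 in the VD(+) arrays. Only VD(+) replicate 3 reached the lower VD(−) arrays. The difference was 0.61 (SE 0.19, adjusted p = 0.529 by limma), with 0.67 for single arrays alone and 0.53 for pools alone. In Iglv1/Iglc1/Iglv2 10438405 the mean was 9.50 ± 0.41 in VD(−) BM and 9.46 ± 0.11 in VD(+) BM (SD, n = 5 each), a difference of 0.04 (SE 0.17). The probe sets share 1 of 4 listed mRNAs each, and which part of the lambda transcripts each measures was not analysed here.

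Arrays of the same group differed in their immunoglobulin probe sets. The SD within groups had a median of 0.354 over the members and 0.159 over the probe sets above the median level, and 15 of the 29 members lay above 0.351, the 90th percentile of those probe sets. Between the 3 single arrays the median SD was 0.332 in VD(−) and 0.370 in VD(+) BM, against 0.156 and 0.169 over all probe sets. Between the 2 pools it was 0.125 in VD(−) and 0.248 in VD(+) BM, against 0.122 and 0.108 over all probe sets. The SD of the single arrays exceeded that of the pools in 22 of 29 members in VD(−) BM (75.9%, against 59.3% of all probe sets) and in 20 in VD(+) BM (69.0%, against 66.4%).

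Values that differed by over 1 between the arrays of a group were found in 6 members in VD(−) BM (20.7%, against 10.2% of all probe sets) and in 11 in VD(+) BM (37.9%, against 10.9%). The widest range was 3.13 in VD(−) BM, for Igkv6-20, and 3.16 in VD(+) BM, for Ighv3-6/Igha. The array that stood high was not the same from segment to segment. VD(−) replicate 2 was high for Igkv6-20 and Ighm 10402991, VD(−) replicate 1 and pool 1 for Igkv6-14/Igkv6-15, VD(+) replicate 2 and pool 1 for Ighv3-6/Igha, and VD(+) replicate 3 and pool 2 for Igha/Ighv1-33. VD(+) replicate 1 was low for Igkv9-120 (6.74, other VD(+) arrays 7.99 to 8.64) and Igkv19-93 10545177 (7.08, other VD(+) arrays 7.94 to 8.34).

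**Figure D4:**
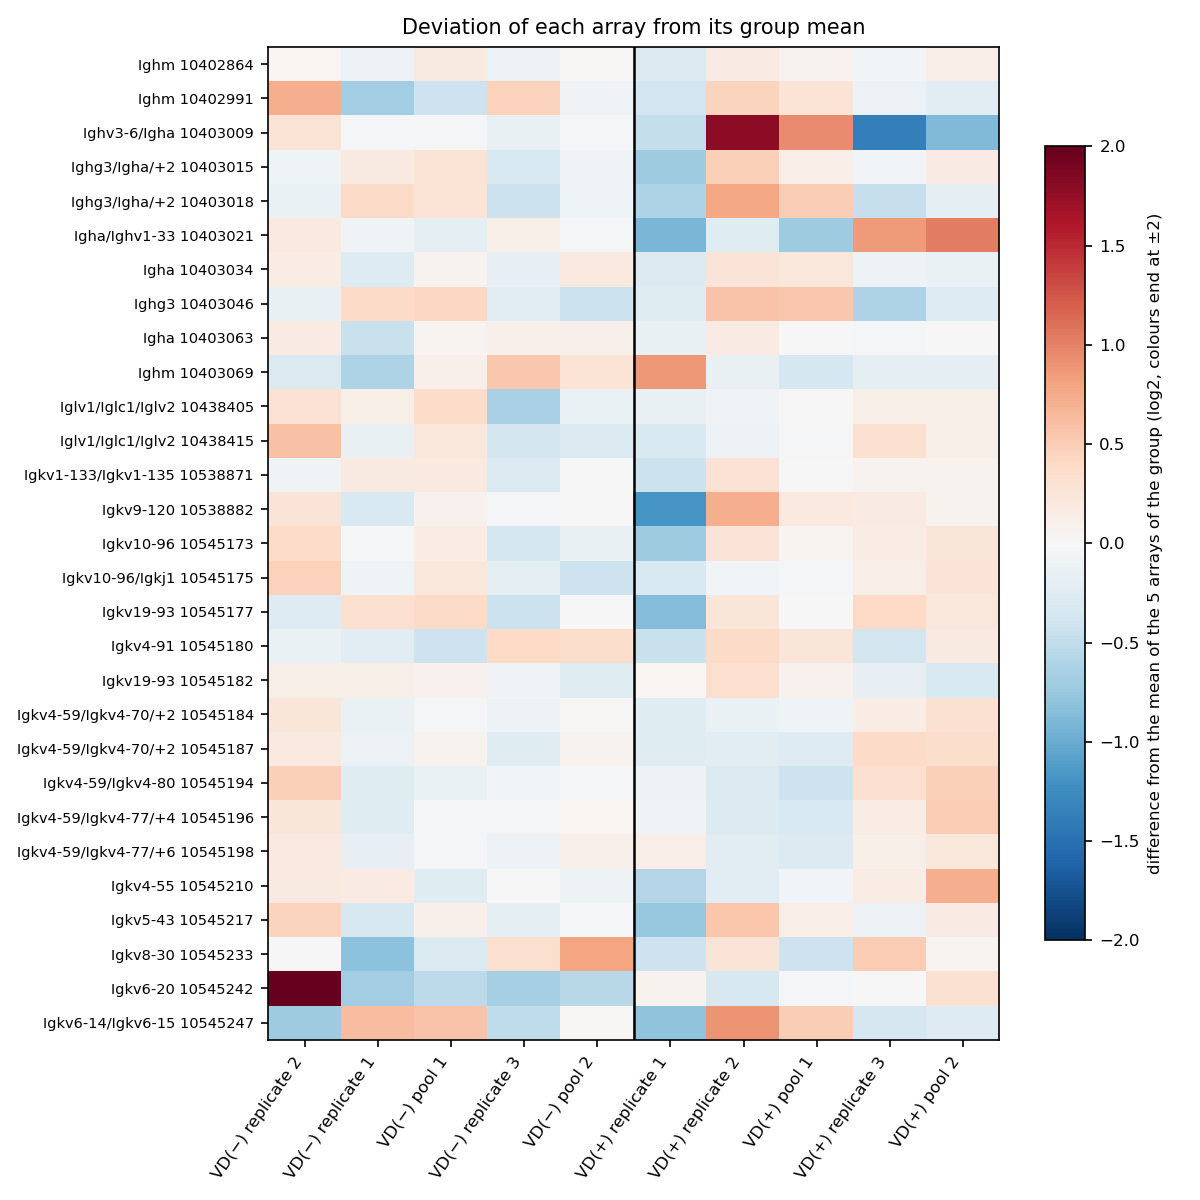
Deviation of each array from the mean of the 5 arrays of its group (log2, red above and blue below) for the 29 immunoglobulin probe sets, VD(−) arrays on the left and VD(+) arrays on the right, each pool beside the single array it resembled. Igkv6-20 in VD(−) replicate 2 (9.02) has no counterpart in a VD(−) pool, whereas Ighv3-6/Igha is high in both VD(+) replicate 2 (8.96) and VD(+) pool 1 (8.11).

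Averaged over the members, the arrays differed by less. The mean of the 29 log2 values was 7.73, 8.06 and 7.72 in VD(−) replicates 1 to 3 and 7.90 and 7.82 in the VD(−) pools, against 7.38, 7.96 and 7.74 and 7.78 and 7.86 in the VD(+) arrays. The groups overlapped, and VD(+) replicate 1 was the lowest. Over the 17 kappa probe sets VD(+) replicate 1 was lowest too, at 7.18, and the other 9 arrays lay between 7.55 and 8.06.

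Genes that act with the immunoglobulin loci were read from lists of B lineage genes, with 1 probe set a gene. Fcer2a, the low-affinity IgE receptor of mature B cells, fell in VD(−) BM by 0.58 (SE 0.08, adjusted p = 0.0305 by limma), and no marker of plasma cells passed an adjusted p of 0.05. All 15 measured markers of mature B cells had a difference below 0 with a median of −0.23, and 4 (26.7%) had an unadjusted p under 0.05, against 3.23% of all probe sets. These genes were read on the same arrays, so they are not independent measurements. Their mean level was 6.99 to 7.36 in VD(−) and 7.29 to 7.68 in VD(+) arrays. The groups overlapped, since VD(−) pool 1 (7.36) lay above VD(+) replicate 1 (7.29). Fcer2a was 5.90, 5.82 and 5.65 in the VD(−) replicates and 5.86 and 5.86 in the VD(−) pools, against 6.42, 6.33 and 6.58 and 6.24 and 6.42 in the VD(+) arrays, and it was the only list gene past an adjusted p of 0.05. That call held in 1 of 10 cases with an array left out (without VD(+) pool 1), with an adjusted p of 0.0448 to 0.102 by limma, and not by the methods' t-test (adjusted p = 0.0984), in the single arrays (0.707), without the arrays with Y-linked signal (0.352) or with that signal as a covariate (0.0831). Ms4a1, which encodes CD20, had a difference of −0.45 (SE 0.13, adjusted p = 0.521 by limma).

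Of 18 plasma cell markers 1 (5.56%) was higher at an unadjusted p under 0.05, against 3.85% of all probe sets, and the median was 0.02. Jchain, which joins IgM and IgA units, had a difference of 0.08 (SE 0.11), and Xbp1, a transcription factor of secretory cells, one of 0.13 (SE 0.07). Creld2, a protein of the endoplasmic reticulum, was the 1 marker at an unadjusted p under 0.05, with 0.23 (SE 0.10, adjusted p = 0.695 by limma). Among 12 genes for assembly and secretion of immunoglobulin the median was 0.07. The only 1 (8.33%) at an unadjusted p under 0.05, against 3.85% of all probe sets higher, was Sdf2l1, a partner of the chaperone BiP. Its difference was 0.36 (SE 0.14, adjusted p = 0.634 by limma).

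The mean level of 15 markers of pro-B and pre-B cells, in which the V segments are joined, overlapped between the groups and varied most among VD(−) arrays. It was 6.95, 6.24 and 5.90 in the VD(−) replicates and 7.16 and 6.45 in the VD(−) pools, against 6.29, 6.62 and 6.60 and 6.66 and 6.47 in the VD(+) arrays. Igll1 is a part of the surrogate light chain of pre-B cells. In the arrays with Y-linked signal it was 8.30 (VD(−) replicate 1), 8.51 (VD(−) pool 1) and 7.07 (VD(−) pool 2). It was 6.16 and 5.14 in VD(−) replicates 2 and 3, while the VD(+) arrays lay between 6.07 and 6.87. Rag1, a subunit of the recombinase, was 4.24 in VD(−) replicate 3, and the other 9 arrays lay between 5.96 and 7.33. The list's median difference was 0.03. Of its 15 genes 1 (6.67%) was lower at an unadjusted p under 0.05, against 3.23% of all probe sets. This was Pax5, with −0.28 (SE 0.12, adjusted p = 0.684 by limma). The part of these precursors in the values of the V segments was not tested.

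Of 13 genes of recombination and class switching, 1 (7.69%) was higher at an unadjusted p under 0.05, against 3.85% of all probe sets. This was Nhej1, a factor of DNA end joining, with 0.30 (SE 0.13, adjusted p = 0.695 by limma). Of 14 transcription factors of the immunoglobulin loci 3 (21.4%) were lower at an unadjusted p under 0.05, against 3.23% of all probe sets. These were Ikzf3 with −0.29 (SE 0.11), Pou2f2, which encodes the octamer-binding protein OCT2, with −0.29 (SE 0.12), and Pax5 as above (adjusted p = 0.637, 0.667 and 0.684 by limma). Pou2af1, the coactivator of OCT2, had a difference of 0.06 (SE 0.12). Over the 80 genes of these lists, 3 were higher (3.75%) and 7 lower (8.75%) at an unadjusted p under 0.05, against 3.85% and 3.23% of all probe sets, and the total of 10 was 3 without VD(+) replicate 3, 3 without VD(+) pool 2 and 5 without VD(−) replicate 2.

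Markers of other BM cells were measured beside these. The mean level of 8 neutrophil markers lay between 11.72 and 12.08 in VD(−) and between 11.81 and 12.01 in VD(+) arrays, and 0 of them had an unadjusted p under 0.05 in limma. That of 8 macrophage markers lay between 7.80 and 8.39 in VD(−) and between 7.30 and 7.95 in VD(+) arrays. Of these, 2 (25%) were higher at an unadjusted p under 0.05, against 3.85% of all probe sets. They were Vsig4 with 0.84 (SE 0.28) and Cd68 with 0.27 (SE 0.08), with adjusted p = 0.56 and 0.482 by limma. The level of 7 T cell markers lay between 5.54 and 6.63 in VD(−) and between 5.79 and 6.23 in VD(+) arrays. None of the T cell markers (0) had an unadjusted p under 0.05 in limma. The mean level of 6 erythroid markers lay between 9.40 and 9.69 in VD(−) and between 9.38 and 9.63 in VD(+) arrays. Of these, 1 (16.7%) was higher at an unadjusted p under 0.05, Klf1 with 0.25 (SE 0.10, adjusted p = 0.673 by limma). The part of the cell makeup in the differences of the immunoglobulin probe sets was not tested.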

How the data were processed

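The deposited log2 values were made by the authors in Partek Genomics Suite, which the paper's methods name, with RMA, which the submitters' processing notes name. These methods give a miRNA array as the platform, but the deposited table carries probe sets annotated for a whole-transcript mouse gene array. The sources used here give neither the genome build behind the probe sets nor any filter. RMA removes differences in total RNA between arrays, whose medians lay between 4.74 and 4.80, and precision is limited by the number of arrays. The table has 0 columns that were not used. Symbols came from the platform annotation, and all 29 were matched by gene ID to a current gene table (GRCm38.p6) that gave chromosomes and segment types.

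The comparison of VD(−) with VD(+) arrays used limma 3.58.1 (lmFit, eBayes; R 4.3.3), two-sided, on all 35556 probe sets, with Benjamini-Hochberg adjustment over all of them. For single probe sets an exact permutation test was added, over 252 arrangements. It gives its smallest p, 0.00794, wherever the groups do not overlap, so this p adds nothing to that observation and is not repeated beside it. Nothing in the labels states that the arrays of a group are of separate animals. The procedure was tested on simulated data.

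Members and lists were chosen with earlier results of these data known. Named were constant region probe sets, members called or with groups apart, the largest rises and falls of V and J segments, those with the most extreme single arrays, and 4 genes of smallest p per list, of which some are printed. This took 27 members, and the other 2 are given too. Left out were 2 probe sets that list kappa segments with another gene, Map3k20, with differences of 0.30 (SE 0.21) and −0.15 (SE 0.10). Promoter and protein sequences of the members were not analysed here. The alternatives were the methods' t-test, other normalization, filter, spread and weights, pool as covariate, singles or pools alone, a replicate block, the Y-linked signal as covariate and each array left out. The 7 arrays without Y-linked signal were added after the data were seen.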

Additional observations from a re-analysis of the deposited data

Results flagged for a closer look

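Of 58 groups of 5 values tested, 6 held an array far from the other 4 of its group, and chance gives about 1 in 20, which is 2.9. The members share arrays and, in part, mRNAs, so the groups are not independent and 2.9 is a rough guide. In VD(−) BM replicate 2 was high for Igkv6-20 (9.02, others 5.89 to 6.07), Ighv3-6/Igha (6.99, others 6.57 to 6.69) and Igkv4-59/Igkv4-80 (6.90, others 6.19 to 6.39), and replicate 1 was low for Igha 10403063 (7.64, others 8.14 to 8.25). In VD(+) BM replicate 1 was high for Ighm 10403069 (7.50, others 6.29 to 6.48) and low for Igkv10-96 10545173 (8.94, others 9.70 to 9.91). All 6 were single arrays, and none was a pool.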

How the results depend on the processing

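At an adjusted p under 0.05 the 1 member called, Igkv4-91, was not called (0 members) by the methods' t-test, in the single arrays alone, in the pools alone, in the 7 arrays without Y-linked signal or with a replicate block, and the brighter probe sets alone gave 2, with Igha 10403063 added (adjusted p = 0.0385 by limma). With each array left out in turn the count was 0 to 1. Over all probe sets the deviations of same-numbered arrays had correlations of −0.0522 to 0.0613. This shows no pairing by replicate number over the whole array but cannot exclude one, so the block is given as a further setting. With it Igkv4-91 had an adjusted p of 0.2 by limma. At an unadjusted p under 0.05 the count of 12 members was 5 in the single arrays alone, 7 in the pools alone and 6 without the arrays with Y-linked signal, each of which uses fewer arrays. On all 10 arrays the count of members was 8 with the Y-linked signal as a covariate and 8 by the methods' t-test, each with 3 higher and 5 lower. The 3 higher members were not the same in both. With each array left out the count was 8 to 11, while 3.18% to 4.18% of all probe sets were higher and 2.86% to 3.53% lower. Of the 80 B lineage genes, the 10 at that threshold were 3 to 14 with each array left out, beside these same shares of all probe sets. The median difference over the members, 0.08, ran from 0.0019 to 0.145 with each array left out and from 0.0151 to 0.203 under the other settings. Igkv4-55 changed sign in the pools alone (−0.02), and the cause was not tested. Of the 17 members with no unadjusted p under 0.05, 12 changed sign under some setting, and of the other 12 only Igkv4-55 did.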
